A study of Blastobotrys raffinosifermentans with 8 samples.

Results

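The 40 locus tags described here were measured in *Blastobotrys raffinosifermentans* cultures with and without gallic acid. Their transcript levels in the media differed by at most 0.5 log2 units at 15 min and 30 min. They were higher with gallic acid at both 2 h and 5 h, though for some tags an early difference was as large as a late one. They were selected on measured values. The log2 ratio of a tag, its level with gallic acid plus glucose minus its level with glucose, had to lie between -0.5 and 0.5 at both early harvest times. Among the 5136 tags inside these limits, out of 6114 considered and 6159 on the array, the 40 with the highest values of the lower of the 2 h and 5 h ratios were taken. The size of the late ratios and the small early ratios of these tags are therefore a description, to which no test applies. No file used here gives names or functions for the tags, and the study's text mentions none of the 40, so they are given by their identifiers.

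The gallic acid group received fresh nitrate medium holding 0.5% gallic acid and 1% glucose, and the glucose group the same medium holding 1% glucose alone, both after an overnight culture of strain LS3 on glucose. Samples were taken early, at 15 min and 30 min, and late, at 2 h and at 5 h, and the total RNA of each was hybridised to a one-colour Agilent array. There were 4 arrays with gallic acid plus glucose and 4 with glucose, which is 1 array per medium and harvest time. All samples thus came from 1 strain and all media contained glucose, and nothing in the labels says whether the harvests of a medium came from separate flasks.

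Gallic acid is a hydroxylated benzoic acid that is set free when tannins are broken down. Some yeasts can use it as a source of carbon: the acid loses its carboxyl group to give pyrogallol, and dioxygenases then open the aromatic ring so that the carbon can enter central metabolism. Glucose, which every culture received, is the sugar that yeasts generally use ahead of other carbon sources.

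Levels are log2 values after background correction and quantile normalisation, and the level of a tag is the median over its probes. Of the spots, between 56.7% and 81.9% were well above background on each array, with the lowest shares at 5 h in both media. The share was lower with gallic acid than with glucose at every harvest, most so at 15 min (58.9% against 78.6%). No spot was saturated. The gallic acid arrays lay in one row of the slide and the glucose arrays in the other, so medium and slide row cannot be told apart. The 10 spike-in transcripts, RNA added in equal amounts to every sample, had median gallic acid minus glucose ratios of 0.17 and -0.11 at the early harvests and of -0.00 and 0.30 at the late ones. Their ratios ran between -0.10 and 0.19 at 2 h and between -0.11 and 0.58 at 5 h. All 40 tags lay above the highest spike-in ratio at 2 h, and 14 of them did so at 5 h. The tags were chosen on these ratios, so the counts describe the selection and are no test of it. Over all tags the 95th percentile of the ratio was 0.35 at 2 h and 0.31 at 5 h. With the spike-in median of each harvest subtracted from the ratios, an alternative chosen after seeing the data, all 40 tags stayed above 0 at both late times, but the median of the lower late ratio was 0.22 in place of 0.45 and the lowest was 0.022. In such cultures a lower level of a transcript and a smaller share of the cells that make it cannot be told apart.

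The late ratios of the 40 tags were mostly moderate. At 2 h they ran from 0.33 to 1.96 with a median of 0.52, which is 1.43-fold, and at 5 h from 0.32 to 1.90 with a median of 0.52, also 1.43-fold. Over all 6114 tags the median was -0.02 at 2 h (SD over tags 0.31) and -0.00 at 5 h (SD over tags 0.24). A log2 ratio of 1 or more, that is a doubling, was seen in 6 of the 40 tags at 2 h and in 2 at 5 h, and in 1 tag, ARAD1C42592g, at both times. Across all tags 0.965% reached this ratio at 2 h and 0.327% at 5 h. The 2 h ratio exceeded the 5 h ratio in 23 tags, and the reverse held in 17. Both late ratios were at or above 0.5 in 14 tags.

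**Figure D1:**
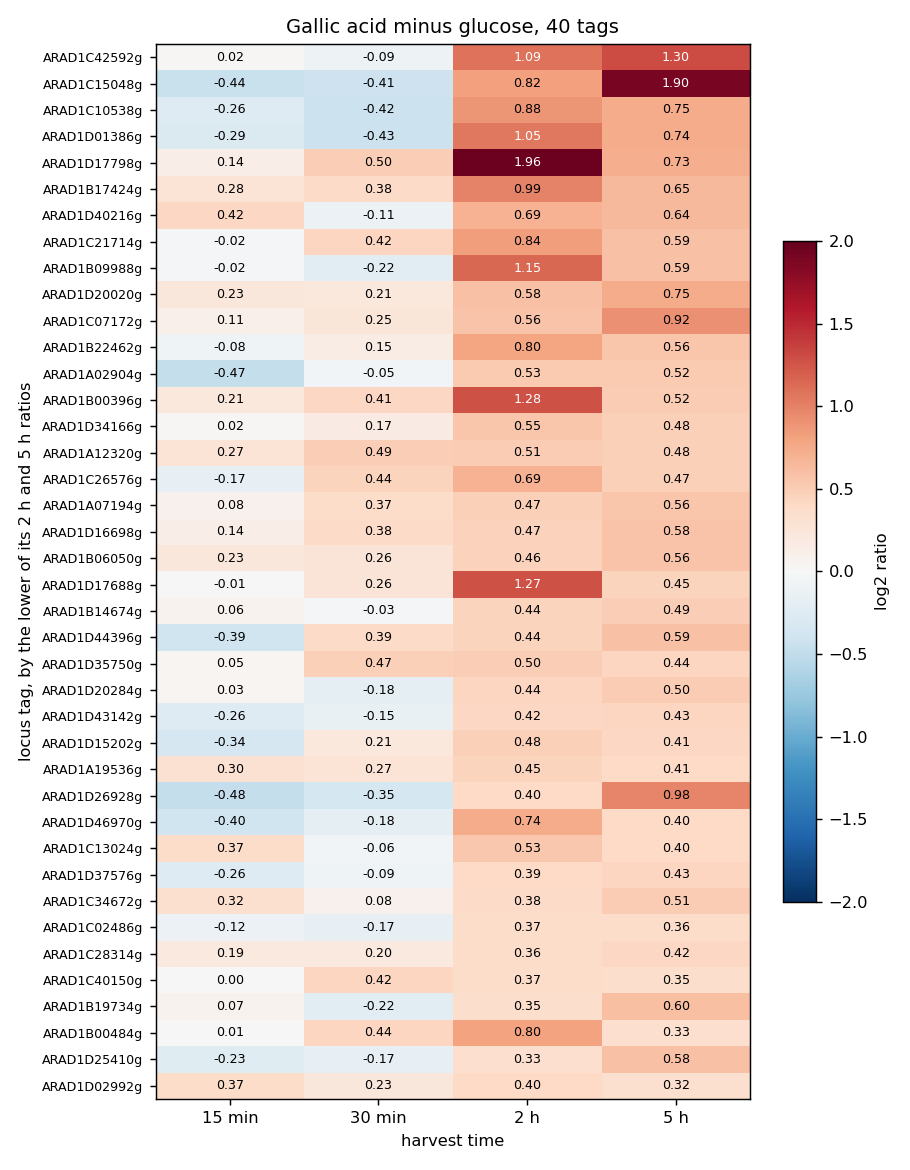
Log2 ratio of gallic acid plus glucose minus glucose for each of the 40 tags (rows, ordered by the lower of the late ratios) at each harvest time (columns), with the value printed in the cell and 1 array per medium and time. The 15 min and 30 min columns hold values of both signs within 0.5 of 0, while every cell of the 2 h and 5 h columns is above 0.

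The early ratios did not all lie close to 0. The 15 min ratios ran from -0.48 to 0.42 (median 0.02) and the 30 min ratios from -0.43 to 0.50 (median 0.18). Both early ratios were above 0 in 17 tags and below 0 in 11, and the 2 had opposite signs in the other 12. For the tags with negative early ratios, such as ARAD1C15048g and ARAD1D26928g, the order of the media thus turned round between the early and the late harvests. In some other tags an early ratio was as large as a late one. The 30 min ratio of ARAD1C40150g was 0.42, against 0.37 at 2 h and 0.35 at 5 h. That of ARAD1D35750g was 0.47, against 0.50 and 0.44. The mean late minus the mean early ratio ran from 0.06 to 1.78 over the 40 tags, with a median of 0.51.

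ARAD1C42592g had the highest lower late ratio of the 40. With gallic acid its levels were 6.91, 7.62, 7.04 and 8.08 from 15 min to 5 h, against 6.89, 7.72, 5.95 and 6.78 with glucose. The media differed by less than 0.1 up to 30 min and then separated, with a level in glucose at 2 h below all others of this tag. The 30 min ratio is a median over probes that differed widely (SD over probes 1.45), with 2 of 6 higher with gallic acid. At that harvest 83.3% of its probes were above background in glucose. The ratios were 1.09 at 2 h (2.13-fold) and 1.30 at 5 h (2.47-fold), and all 6 probes were higher with gallic acid at both times.

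ARAD1C15048g reached the highest 5 h ratio. Its levels with gallic acid were 5.50, 6.75, 6.34 and 7.80, against 5.94, 7.16, 5.53 and 5.90 with glucose. It was lower with gallic acid at both early times and higher at both late times, with ratios of -0.44, -0.41, 0.82 and 1.90. All 10 of its probes were higher with gallic acid at 2 h and 5 h, but their ratios differed among themselves at 5 h more than those of any other of the 40 tags (SD over probes 0.71).

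ARAD1C10538g and ARAD1D01386g likewise began lower with gallic acid. ARAD1C10538g had levels of 8.43, 7.88, 8.61 and 8.47 with gallic acid, against 8.69, 8.30, 7.73 and 7.73 with glucose. Both late gallic acid levels of this tag lay above both early ones, and both late glucose levels lay below the early ones. ARAD1D01386g had levels of 5.98, 7.96, 7.35 and 7.54 with gallic acid, against 6.28, 8.39, 6.29 and 6.80 with glucose. This tag was highest at 30 min in both media and then stayed higher with gallic acid, by 1.05 at 2 h and 0.74 at 5 h.

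ARAD1D17798g had the highest 2 h ratio, and its glucose levels hardly moved. Its levels were 4.86, 5.25, 6.68 and 5.58 with gallic acid, against 4.72, 4.76, 4.72 and 4.85 with glucose, near the bottom of the scale. The ratio was 1.96 at 2 h and 0.73 at 5 h, and 0.50 at 30 min, just inside the early limit. Its probes were well above background at 2 h in 100% with gallic acid and in 40% with glucose, and at 5 h in 60% with gallic acid and in 20% with glucose. Most of its glucose signal was thus not above background, and the lower late ratio depended on the background correction, with 0.38 at an offset of 50, 1.31 at an offset of 0 and 2.32 for the processed signal.

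ARAD1B17424g and ARAD1B09988g were highest at 2 h in both media. ARAD1B17424g had levels of 5.33, 5.78, 6.89 and 6.20 with gallic acid, against 5.05, 5.39, 5.90 and 5.55 with glucose. ARAD1B09988g had levels of 5.40, 5.76, 7.66 and 5.82 with gallic acid, against 5.42, 5.98, 6.50 and 5.24 with glucose. At 5 h 83.3% of the probes of ARAD1B09988g were above background with gallic acid and none in glucose. Its 5 h ratio, 1.50-fold at these settings, was thus set against a glucose signal not above background. Its lower late ratio depended on the background correction, with 0.34 at an offset of 50 and 0.90 at an offset of 0.

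ARAD1D40216g was among the more abundant of the 40 and was lower late in both media. Its levels were 9.65, 9.31, 8.33 and 9.13 with gallic acid, against 9.23, 9.42, 7.64 and 8.49 with glucose. ARAD1C21714g had levels of 6.00, 6.52, 6.65 and 7.02 with gallic acid, against 6.02, 6.09, 5.81 and 6.44 with glucose. ARAD1D20020g, represented by only 3 probes, had levels of 6.39, 6.68, 6.50 and 6.82 with gallic acid, against 6.16, 6.47, 5.91 and 6.07 with glucose. In these 3 tags the late ratios lay between 0.58 and 0.84, and all probes were higher with gallic acid at both late times.

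**Figure D2:**
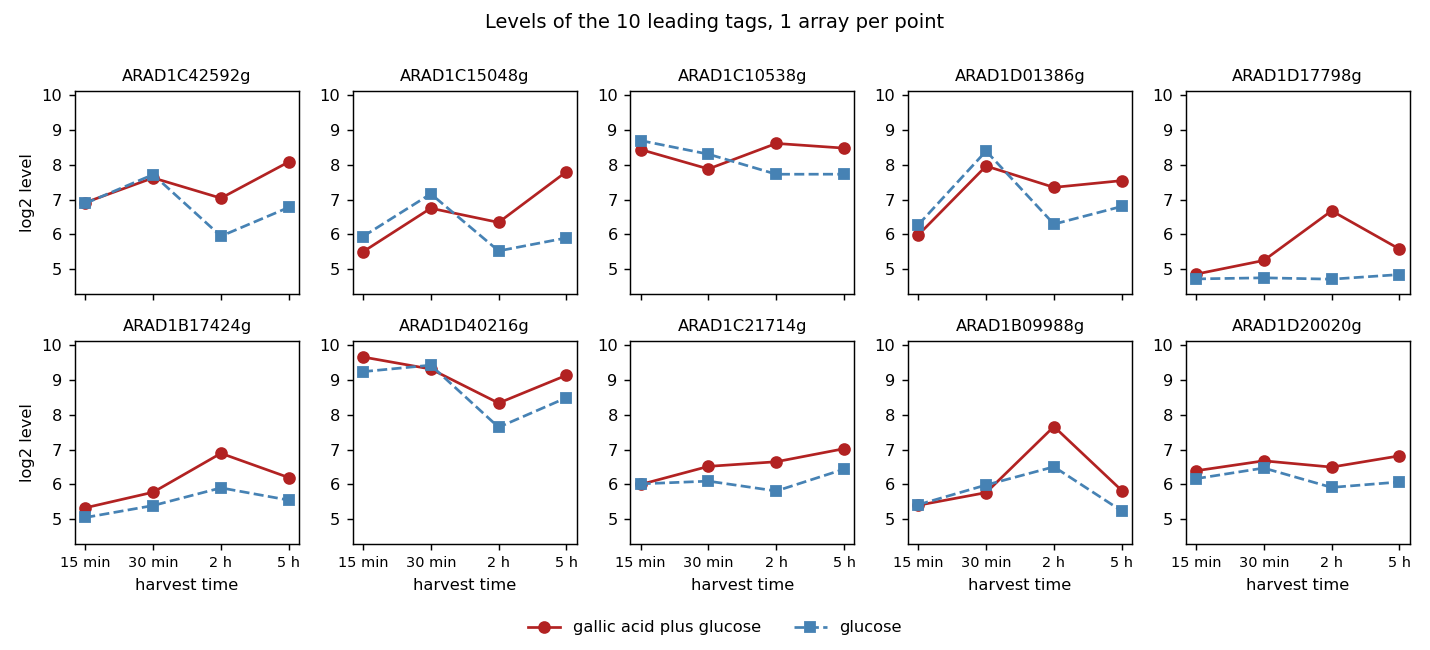
Log2 level of the 10 leading tags at each harvest time (1 array per point), with gallic acid plus glucose in red and glucose in blue dashes. The red line is above the blue one at 2 h and 5 h in every panel, while up to 30 min the lines lie within 0.5 of each other and in either order.

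The remaining 30 tags had 2 h ratios of 0.33 to 1.28 and 5 h ratios of 0.32 to 0.98. A late ratio near or above 0.5 at both times was found for ARAD1C07172g (0.56 at 2 h and 0.92 at 5 h), ARAD1B22462g (0.80 and 0.56), ARAD1A02904g (0.53 and 0.52), ARAD1B00396g (1.28 and 0.52), ARAD1D34166g (0.55 and 0.48) and ARAD1A12320g (0.51 and 0.48). The next tags in order were ARAD1C26576g (0.69 at 2 h and 0.47 at 5 h), ARAD1A07194g (0.47 and 0.56), ARAD1D16698g (0.47 and 0.58), ARAD1B06050g (0.46 and 0.56), ARAD1D17688g (1.27 and 0.45) and ARAD1B14674g (0.44 and 0.49). Of these, ARAD1D17688g stood out for its 2 h ratio, while the others were of like size at both times. Then followed ARAD1D44396g (0.44 at 2 h and 0.59 at 5 h), ARAD1D35750g (0.50 and 0.44), ARAD1D20284g (0.44 and 0.50), ARAD1D43142g (0.42 and 0.43), ARAD1D15202g (0.48 and 0.41) and ARAD1A19536g (0.45 and 0.41). In the lower part of the order ARAD1D26928g (0.40 at 2 h and 0.98 at 5 h), ARAD1D46970g (0.74 and 0.40), ARAD1C13024g (0.53 and 0.40), ARAD1D37576g (0.39 and 0.43), ARAD1C34672g (0.38 and 0.51) and ARAD1C02486g (0.37 and 0.36) were found. The last ones were ARAD1C28314g (0.36 at 2 h and 0.42 at 5 h), ARAD1C40150g (0.37 and 0.35), ARAD1B19734g (0.35 and 0.60), ARAD1B00484g (0.80 and 0.33), ARAD1D25410g (0.33 and 0.58) and ARAD1D02992g (0.40 and 0.32). Beyond the first 15 tags, neighbours in this order differed by a few hundredths of a log2 unit at most, which is less than the spread over the probes of a tag (median SD over probes 0.23 at 2 h and 0.25 at 5 h).

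The limits of the selection fell within a continuous range of values. The last tags inside were ARAD1D25410g and ARAD1D02992g, with lower late ratios of 0.33 and 0.32. Levels of ARAD1D25410g were 7.66, 6.32, 6.43 and 6.88 with gallic acid, against 7.90, 6.49, 6.10 and 6.29 with glucose. Levels of ARAD1D02992g were 7.35, 7.08, 7.34 and 7.49 with gallic acid, against 6.99, 6.86, 6.94 and 7.17 with glucose, so that this tag was higher with gallic acid at all 4 times. Just outside stood ARAD1C07084g, with ratios of 0.32 at 2 h and 0.59 at 5 h, and ARAD1D34078g, with ratios of 2.09 at 2 h and 0.31 at 5 h. The second of these shows that a tag with a large ratio at 2 h alone was not selected.

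Among tags with late ratios as high as those of the 40, the early limits removed more than they kept. In all, 114 tags had a lower late ratio at least as high as that of the last of the 40, and 74 of them were outside the early limits, 60 with an early ratio above 0.5 and 16 with one below -0.5. The nearest were ARAD1A01320g, with a 30 min ratio of 0.51 and late ratios of 1.14 and 0.72, and ARAD1D03080g, with a 15 min ratio of 0.51 and late ratios of 0.35 and 0.54. Both would have been taken at a slightly wider limit.

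Ratios of the opposite sign were at least as common among tags with small early ratios. Of the 5136 tags, 1217 were above 0 at both late times and 1586 were below 0 at both. A ratio of at least 0.5 in size at both late times was found in 14 tags higher and 14 tags lower with gallic acid, and a ratio of at least 1 in size in 1 higher and 3 lower. With the sign turned, the same rule gave values from -1.54 to -0.37 for its first 40 tags. Over the 5136 tags the 2 h and 5 h ratios, which come from different arrays of 1 normalised table, had a correlation across tags of 0.27, given here as a description, since tags are not independent replicates.

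**Figure D3:**
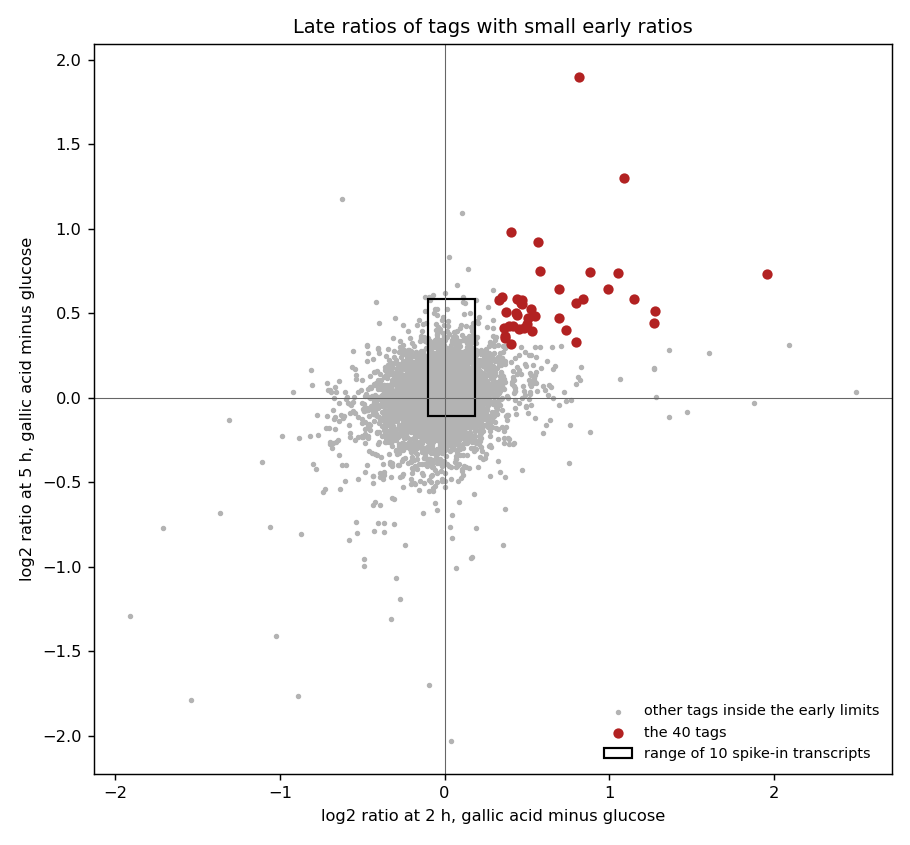
Log2 ratio of gallic acid plus glucose minus glucose at 2 h (horizontal axis) and at 5 h (vertical axis) for the 40 tags (red) and the other tags inside the early limits (grey). The box spans the ratios of the 10 spike-in transcripts, -0.10 to 0.19 at 2 h and -0.11 to 0.58 at 5 h. All red points, which were chosen on these ratios, lie to its right and 14 also lie above it.

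The same late ratio arose from different courses in the separate media. For each tag the mean of the 2 h and 5 h levels minus the mean of the 15 min and 30 min levels was taken within each medium, and a difference of 0.5 or more in size was counted. The median difference was 0.27 with gallic acid and -0.39 with glucose over the 40 tags, against -0.01 and 0.00 over the 5136 tags. The rule favours a gallic acid difference above the glucose one, though it does not require it, and it says nothing of how much lies in which medium. The late mean was higher than the early one in 26 tags with gallic acid and lower in 29 tags with glucose. Both held in 15 tags.

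In 15 of the 40 tags the level stayed within 0.5 with gallic acid and was lower late in glucose, a course found in 1.34% of the 5136 tags. ARAD1C42592g, ARAD1C10538g and ARAD1D01386g, described above, led this set, with differences of 0.29, 0.39 and 0.47 with gallic acid and of -0.94, -0.77 and -0.78 with glucose. The other members were ARAD1A02904g, ARAD1C26576g, ARAD1A07194g, ARAD1D44396g, ARAD1D35750g, ARAD1D20284g, ARAD1D43142g, ARAD1D26928g, ARAD1D37576g, ARAD1C34672g, ARAD1B19734g and ARAD1D25410g. This course was the most frequent of the 40 here, but not at every setting. At an offset of 50 it held 8 tags, against 22 past the limit in neither medium, and with a limit of 1 it held 2, against 35.

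In 7 tags the level was higher late with gallic acid and stayed within 0.5 in glucose, against 2.41% of the 5136 tags. These were ARAD1D17798g, ARAD1C21714g, ARAD1B09988g, ARAD1D17688g, ARAD1D46970g, ARAD1C02486g and ARAD1B00484g. The differences of the first 3 were 1.07, 0.58 and 1.16 with gallic acid and 0.04, 0.07 and 0.17 with glucose. In this set the gallic acid culture moved and the glucose culture did not pass the limit.

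Neither medium passed the limit in 13 tags, the course of 82.1% of the 5136 tags. Their late ratios lay between 0.32 and 1.28. ARAD1D20020g, ARAD1C07172g and ARAD1B22462g had the highest values of the lower late ratio in this set. ARAD1C07172g had levels of 4.99, 5.36, 5.63 and 5.62 with gallic acid, against 4.89, 5.12, 5.07 and 4.70 with glucose. At 15 min 0% of the probes of ARAD1C07172g were above background in either medium. At 5 h 50% were above background with gallic acid and 25% with glucose. ARAD1B22462g had levels of 7.33, 7.08, 8.07 and 7.23 with gallic acid, against 7.41, 6.93, 7.27 and 6.67 with glucose. Their differences were 0.45 and 0.44 with gallic acid and -0.12 and -0.20 with glucose. The others were ARAD1B00396g, ARAD1A12320g, ARAD1B06050g, ARAD1B14674g, ARAD1D15202g, ARAD1A19536g, ARAD1C13024g, ARAD1C28314g, ARAD1C40150g and ARAD1D02992g.

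The remaining 5 tags divided over 3 courses. ARAD1B17424g and ARAD1D34166g were higher late in both media, by 0.99 and 1.39 with gallic acid and by 0.50 and 0.97 with glucose. Levels of ARAD1D34166g were 5.26, 5.59, 7.86 and 5.78 with gallic acid, against 5.24, 5.42, 7.31 and 5.30 with glucose, a course with a single high harvest at 2 h in both media. ARAD1D40216g and ARAD1D16698g were lower late in both media, with differences of -0.75 and -0.99 with gallic acid and of -1.26 and -1.25 with glucose. Levels of ARAD1D16698g were 5.25, 7.73, 5.76 and 5.25 with gallic acid, against 5.12, 7.35, 5.30 and 4.67 with glucose. At 5 h 14.3% of the probes of ARAD1D16698g were above background in each medium, so its 5 h ratio of 0.58 compares signals mostly not above background. Only ARAD1C15048g was higher late with gallic acid (0.95) and lower late with glucose (-0.84), and it was the only tag of the 5136 with this course.

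**Figure D4:**
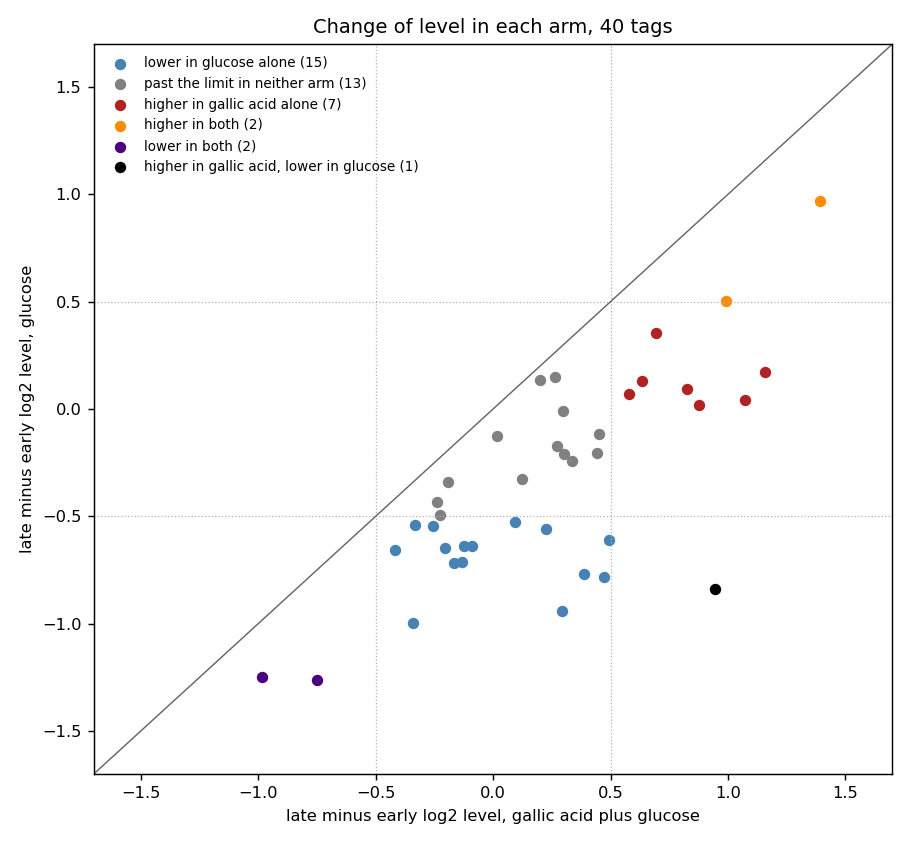
Late (2 h and 5 h) minus early (15 min and 30 min) mean log2 level with gallic acid plus glucose (horizontal axis) and with glucose (vertical axis) for the 40 tags, coloured by which medium passed the limit of 0.5 (dotted lines); numbers of tags are in the legend. All points lie below the line of equality, which the selection favours, and the largest set, of 15 tags, lies below -0.5 on the glucose axis only.

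In 25 of the 40 tags both late gallic acid levels lay above both late glucose levels, which held for 5.49% of the 5136 tags. Such a separation needs a ratio above 0 at both late times, which 1217 of the 5136 tags had, and 282 tags were separated. The rule took the highest late ratios and so favours it, and the counts in this paragraph describe the selection and are no test. In the other 15 the late levels of the media overlapped, since the course between 2 h and 5 h was larger than the ratio. Both late gallic acid levels exceeded the other 6 levels in 7 tags, and both late glucose levels lay below the other 6 in 7 tags. The highest of the 8 levels of a tag was with gallic acid at 2 h for 12 tags and with gallic acid at 5 h for 11, and for the other 17 it lay at an early time in either medium. The lowest was in glucose at 2 h for 16 tags and in glucose at 5 h for 8.

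The mean of the media was not used by the rule, so the course shared by both media could be tested. Changes between harvest times were estimated with limma over all 6103 tags with a detectable signal, in a model with harvest time and medium, and called at a Benjamini-Hochberg adjusted p below 0.05. All 40 tags were among those tested. With 1 array per medium and time, the error of this model is the change of the ratio between times. The selection makes that error larger for the 40 tags (median SE of the late change 0.14, against 0.09 over all tags), which lowers their chance of being called.

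From early to late, 3 of the 40 tags were higher and 8 lower, where 14.3% of all tags were called higher and 12.6% lower. The median late change was -0.08 over the 40 tags and -0.01 over all tags. ARAD1D34166g rose by 1.18 (SE 0.11, limma adjusted p = 0.00120), ARAD1B17424g rose by 0.75 (SE 0.13, adjusted p = 0.00791) and ARAD1B00484g rose by 0.52 (SE 0.13, adjusted p = 0.0282). ARAD1D16698g fell by 1.12 (SE 0.09, limma adjusted p = 0.000936), ARAD1D40216g fell by 1.01 (SE 0.14, adjusted p = 0.00419) and ARAD1D25410g fell by 0.67 (SE 0.15, adjusted p = 0.0209). Without the 2 h arrays ARAD1D34166g, ARAD1B17424g, ARAD1B00484g, ARAD1D40216g and ARAD1D25410g lost their calls, with changes of 0.16, 0.49, 0.40, -0.60 and -0.51. The call of ARAD1D16698g rested on its 30 min level and that of ARAD1D25410g on its 15 min level: without those harvests the changes were 0.061 and 0.018. Without the 2 h arrays 1 other tag, ARAD1A12320g, was higher and 3 were lower, against 262 and 243 of all 6103 tags. Without the 30 min arrays 7 of the 40 were higher and 6 lower, against 964 and 930 of all tags. Without the 5 h arrays 6 were higher and 10 lower, against 1070 and 1135. Without the term for medium 1 was higher and 4 lower, against 856 and 715.

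From 15 min to 30 min, 10 of the 40 tags were higher and 3 lower, where 9.21% of all tags were called higher and 8.16% lower. The median change was 0.27 over the 40 tags and -0.00 over all tags. ARAD1D16698g rose by 2.36 (SE 0.13, limma adjusted p = 0.000491), ARAD1D01386g rose by 2.05 (SE 0.37, adjusted p = 0.0154) and ARAD1C26576g rose by 1.86 (SE 0.20, adjusted p = 0.00302). ARAD1C26576g had levels of 6.70, 8.87, 7.67 and 7.48 with gallic acid, against 6.87, 8.42, 6.98 and 7.01 with glucose. The other tags called higher were ARAD1D15202g, ARAD1A07194g, ARAD1B14674g, ARAD1D20284g, ARAD1B00396g, ARAD1D46970g and ARAD1D43142g. ARAD1D25410g fell by 1.37 (SE 0.21, limma adjusted p = 0.00963), ARAD1C34672g fell by 0.87 (SE 0.12, adjusted p = 0.00763) and ARAD1C28314g fell by 0.62 (SE 0.11, adjusted p = 0.0128). For these 6 tags both media changed in the same direction between the early harvests.

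From 2 h to 5 h, 6 of the 40 tags were higher and 9 lower, where 22.1% of all tags were called higher and 18.5% lower. ARAD1D40216g rose by 0.82 (SE 0.20, limma adjusted p = 0.0192), ARAD1A12320g rose by 0.80 (SE 0.11, adjusted p = 0.00202) and ARAD1B06050g rose by 0.75 (SE 0.12, adjusted p = 0.00414). ARAD1D34166g fell by 2.04 (SE 0.15, limma adjusted p = 0.000283), ARAD1D46970g fell by 1.78 (SE 0.27, adjusted p = 0.00334) and ARAD1B09988g fell by 1.55 (SE 0.32, adjusted p = 0.00981). ARAD1D46970g had levels of 7.73, 9.06, 10.24 and 8.30 with gallic acid, against 8.14, 9.23, 9.51 and 7.90 with glucose. Over the 3 comparisons 24 of the 40 tags were called at least once, and 13 in more than 1. The matching share over all tags was not counted, so nothing is read from these 2 counts about the 40. Each comparison held tags of both directions.

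**Figure D5:**
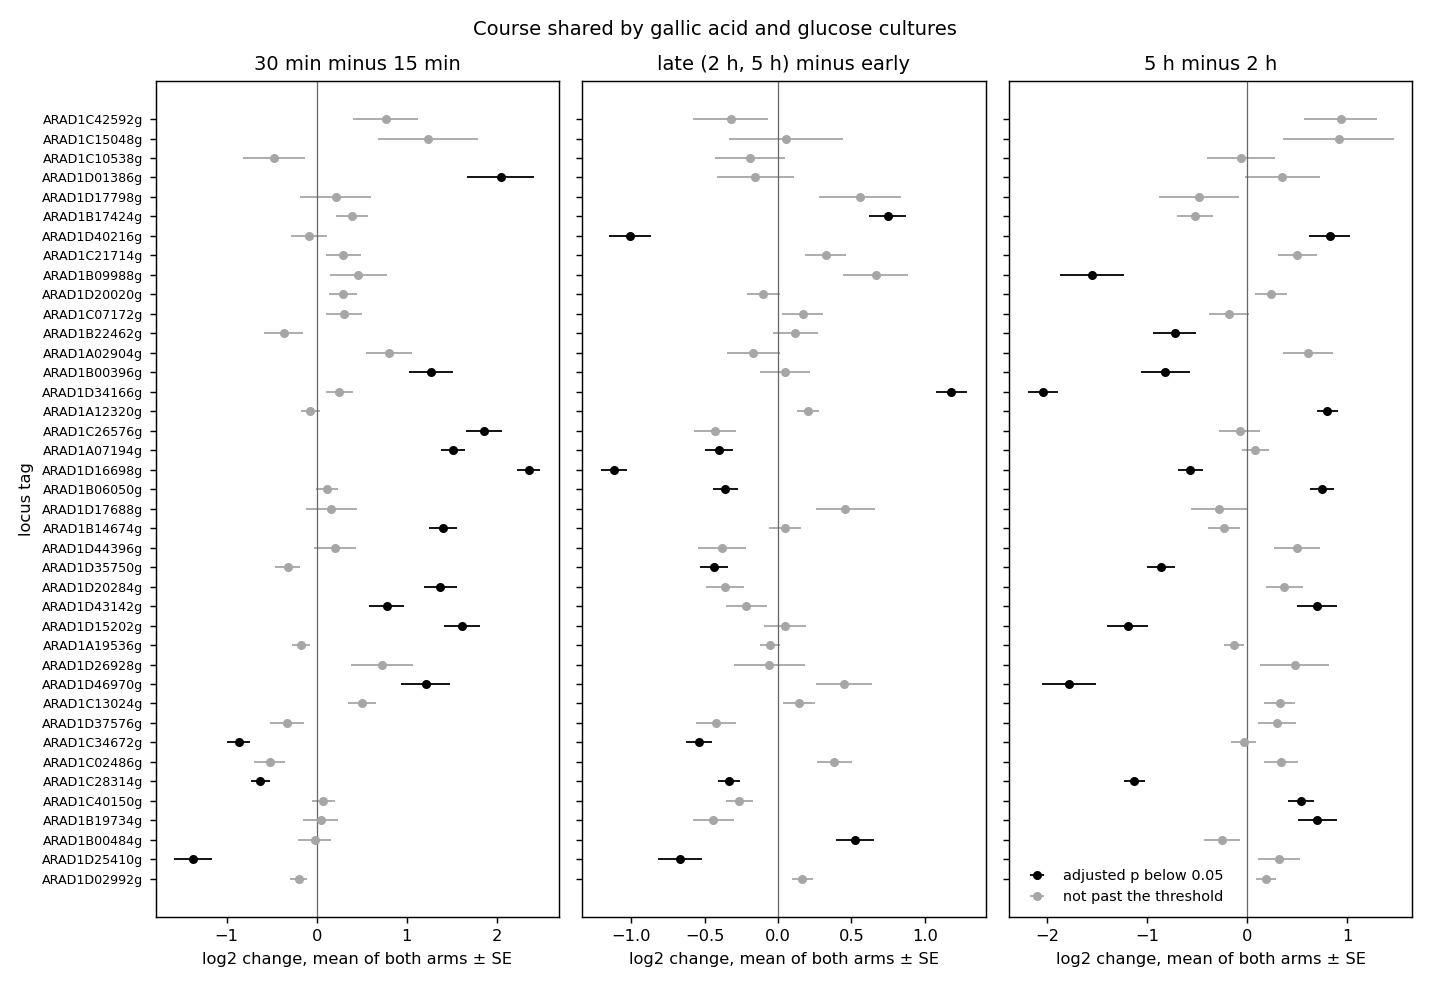
Change of log2 level shared by both media (mean of both, with its SE from limma) for the 40 tags between 15 min and 30 min, between early and late harvests, and between 2 h and 5 h. Black points passed an adjusted p of 0.05: 10 tags higher and 3 lower in the first panel, 3 and 8 in the second, 6 and 9 in the third.

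The change of the gallic acid ratio itself between early and late harvests, which is the contrast of the rule, was called by limma in 0% of the 6103 tags, that is in 0 tags, with 317 at an unadjusted p below 0.05. The lowest adjusted p over all tags was 0.497. This model had 2 residual degrees of freedom, and since the 40 tags were chosen on this contrast nothing is read from it about them.

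The rule used the median over the probes of a tag, so the number of probes on its side is a description of the selected ratios and supports nothing further. All probes were higher with gallic acid at both late times in 26 of the 40 tags, and at least 80% of them in 35, against 359 of all tags. The exceptions were ARAD1B19734g, with 4 of 10 probes higher at 2 h, ARAD1A19536g, with 3 of 5 at 5 h, ARAD1D16698g, with 5 of 7 at 5 h, ARAD1C02486g, with 7 of 10 at 2 h, and ARAD1D25410g, with 7 of 10 at 5 h. Levels of ARAD1B19734g were 7.68, 7.58, 7.05 and 7.87 with gallic acid, against 7.61, 7.80, 6.70 and 7.27 with glucose. The median of its probes was thus higher at 2 h although most single probes were not, since medians were taken before the ratio. Levels of ARAD1A19536g were 5.46, 5.27, 5.46 and 5.30 with gallic acid, against 5.16, 5.01, 5.01 and 4.90 with glucose, a nearly constant separation of the media. The tags were represented by 3 to 10 probes, with a median of 10, as over all tags.

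Most of the 40 tags were well detected. At least 50% of the probes were well above background on all 8 arrays in 29 tags, against 51.8% of all tags, and all probes on all arrays in 18. Over the 8 arrays the mean level of a tag ran from 5.01 to 12.31 (median 6.80), against a median of 5.72 over all tags, and 35 of the 40 were above that. ARAD1C28314g was the most abundant, with levels of 12.89, 12.26, 12.89 and 11.78 with gallic acid, against 12.69, 12.07, 12.52 and 11.37 with glucose. In 8 tags fewer than 50% of the probes were above background in glucose at 2 h or 5 h: ARAD1D17798g, ARAD1B09988g, ARAD1C07172g, ARAD1B00396g, ARAD1D34166g, ARAD1D16698g, ARAD1D17688g and ARAD1A19536g. The ratios of these tags are set against a signal close to background, and the offset used in background correction draws such ratios towards 0.

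The tags lay on 4 chromosomes, as read from their identifiers. Chromosome A held 4 of the 40, B 8, C 11 and D 17, where 14.2%, 17.2%, 32.4% and 35.7% of all tags lie on these chromosomes. In the order of the tags, 2 pairs stood within 5 positions of each other. The first pair, ARAD1D17688g and ARAD1D17798g, 5 positions apart on chromosome D, had the same course. ARAD1D17688g had levels of 4.69, 4.99, 6.01 and 5.32 with gallic acid, against 4.70, 4.73, 4.74 and 4.87 with glucose, near the bottom of the scale in glucose throughout. With gallic acid 100% of its probes were above background at 2 h, against 10% with glucose. At 5 h 30% were above background with gallic acid and none with glucose, so its 5 h ratio of 0.45 sets apart signals that were mostly not above background. Both tags were higher with gallic acid mainly at 2 h, and in both all 10 probes were higher at both late times.

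The second pair, ARAD1B00396g and ARAD1B00484g, 4 positions apart on chromosome B, was also highest at 2 h with gallic acid. Levels of ARAD1B00396g were 5.44, 6.81, 7.06 and 5.86 with gallic acid, against 5.23, 6.40, 5.79 and 5.35 with glucose. Levels of ARAD1B00484g were 6.04, 6.23, 7.07 and 6.59 with gallic acid, against 6.03, 5.80, 6.28 and 6.26 with glucose. Their ratios were 0.41 and 0.44 at 30 min, close to the early limit, and 1.28 and 0.80 at 2 h. The tags directly beside the 40 on the chromosomes, 80 in all, had median ratios of 0.06 at 2 h and 0.05 at 5 h, and 42.5% of them were above 0 at both late times, against 25.0% of all tags.

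Among the tags to which the study's text gives a function in the breakdown of aromatic acids, 9 that the rule considered, a catechol dioxygenase, a phenol hydroxylase and candidate hydroxylases or monooxygenases, were examined, and none was one of the 40. Of these 9 tags, 6 had early ratios inside the limits, and the best placed of them, the candidate hydroxylase ARAD1C08558g, stood at position 1045 with late ratios of 0.02 and 0.04. At most 30% of the probes of ARAD1C08558g were above background on any glucose array, and at most 10% on any gallic acid array. Its ratios thus compare signals that were mostly not above background. Another candidate hydroxylase, ARAD1C00330g, had late ratios of 1.44 and 1.28, as large as those of the leading tags here, but its early ratios of 0.86 and 1.85 put it outside the limits. At most 20% of the probes of ARAD1C00330g were above background on any glucose array, and at most 100% on any gallic acid array. Its ratios are thus set against a glucose signal mostly not above background.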

How the data were processed

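Total RNA of 8 samples was measured, 4 with gallic acid plus glucose and 4 with glucose. The authors extracted spot intensity values with Agilent Feature Extraction 11.5.1.1 per the labels, and the deposited scanner files also hold flags of 0 or 1 for background, saturation and outliers. The authors deposited a table of log2 values after normexp correction and quantile normalisation in limma, which is the source of all levels here. Correcting the median spot signal with normexp at an offset of 16 gave these values within a median of 0.00098 log2 units, which settles their scale. The number of arrays limits the precision.

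Spots of a probe were averaged and the median over probes was taken per tag (61536 spots, 56311 probes, 6159 tags). The rule left out 45 tags, which are not reported here. A tag was tested when at least 1 probe was well above background on at least 2 arrays. Fits used limma 3.58.1 in R 4.3.3 with Benjamini-Hochberg adjustment. They had 3 residual degrees of freedom for the shared course and 2 for the change of the ratio. Only the early to late fit of the shared course was tried on simulated data. With 1 array per medium and harvest time, p-values are set against changes of the ratio between harvest times and not against a spread of replicates. Nothing says the cultures were separate, and part of those changes may be technical. Harvest time, not a replicate number, pairs the arrays of the media. Tags named with all levels were the first 10, the last 2, up to 3 of each course by medium, neighbours in tag order, up to 3 a direction per test, and those with few probes of one sign. The 40 tags, the lists and the tests were chosen with earlier results of these data known. Alternatives were offsets of 50 and 0, the processed signal minus its 75th percentile, the mean of the probes, other filters, priors and adjustments, no term for medium, and leaving out each harvest time.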

Additional observations from a re-analysis of the deposited data

Results flagged for a closer look

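Among the 80 sets of 4 levels, 1 per tag and medium, 4 had an array far from the other 3. Among replicates chance alone would give about 1 set in 20, which is the share found here. The 4 levels of a set are different harvest times and not replicates, so such an array can be part of the course. ARAD1C34672g stood at 8.06 with gallic acid at 15 min, above its other gallic acid levels. In glucose, ARAD1D34166g stood at 7.31 at 2 h, ARAD1C26576g at 8.42 at 30 min and ARAD1A07194g at 6.66 at 30 min, each above the other glucose levels of the tag. The gallic acid cultures of these 3 tags were also highest at the same harvest. ARAD1C10538g was listed because both late levels exceeded both early ones with gallic acid (late minus early 0.39) and both lay below the early ones with glucose (-0.77). This difference between media was not tested, since the tag was chosen on these ratios.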

How the results depend on the processing

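All 40 tags kept late ratios above 0 under offsets of 50 and 0 and the 75th percentile scaling; with the mean of the probes ARAD1B19734g turned to -0.032. The selection itself moved more. Under the 75th percentile scaling 22 tags met the limits and 16 were among the first 40, and at offset 0 25 were among the first 40. An early limit of 0.3 left 17. Counting each spot as a probe, an alternative chosen after seeing the data, kept 36 among the first 40. Chosen after seeing the data, subtracting the spike-in median of each harvest left 26 inside the limits and 21 among the first 40. It lowered the median of the lower late ratio to 0.22, with the lowest at 0.022, and moved 21 of the 40 by more than the SD over their probes. Tags lower in glucose alone numbered 8 at offset 50 and 2 at a limit of 1, tags past the limit in neither medium 22 at offset 50, 6 at the 75th percentile and 35 at a limit of 1, and tags higher with gallic acid alone 3 at a limit of 1.

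After Bonferroni adjustment the early to late change called 46 tags higher and 18 lower (0 and 0 of the 40), the 2 h to 5 h change 33 and 131 (0 and 1), and the 15 min to 30 min change 30 and 13 (1 and 0). Without the term for medium 1 of the 40 was higher and 4 lower from early to late, against 856 and 715 of all 6103 tags. Leaving out each harvest time in turn gave 262 to 1070 tags higher and 243 to 1135 lower from early to late (1 to 7 and 3 to 12 of the 40), and 366 to 403 higher and 324 to 336 lower from 15 min to 30 min. The change of the ratio called 0 to 3 tags lower. Over the same settings 5 late changes turned sign: ARAD1A07194g ran from -1.16 to 0.36 (positive without 30 min), ARAD1D16698g from -2.29 to 0.061 (without 30 min), ARAD1B06050g from -0.73 to 0.012 (without 2 h), ARAD1C28314g from -0.90 to 0.23 (without 5 h) and ARAD1D25410g from -1.35 to 0.018 (without 15 min). These values rest on fewer arrays. No paired analysis was possible because the number that pairs the arrays is the harvest time, which is the term tested; this holds for the shared course, while the change of the ratio was fitted on differences within a harvest. Dim tags had ratios drawn towards 0, and 8 of the 40 had under 50% of their probes above background in glucose late.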
